A study of Mus musculus with 4 samples.

Results

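Subset s2 is one group of CD4 T cells from the mesenteric lymph nodes (mLN) of mice, taken from a second clustering that the authors ran on part of their cells and deposited with the counts. Its members were the cells that the authors kept and gave the label s2, which were 1440 of the 9041 cells with a second-clustering label (subset cells below) and 1440 of the 16948 cells kept in all. That is 15.9% of the subset cells (95% interval 15.2 to 16.7) and 8.50% of all kept cells. Subset s2 was looked at through 6 genes that mark it, Gsta4, Capn3, Zbtb20, Ssbp2, Abcg1 and Igf2r. Since the clustering read all genes of these cells, every comparison of s2 with other cells describes how it was drawn and carries no test.

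The cells came from male mice of 2 genotypes, Foxp3GFP and Foxp3CNS1-. Both were raised germ-free and were either left so or given the fecal flora of SPF (specific-pathogen-free) mice, with the nodes taken 9 days later. GFP marks Foxp3 expression in such reporter mice, and sorted cells were an even mix (50% each) of CD4 T cells with and without GFP. Foxp3CNS1- mice lack CNS1, an intronic enhancer of Foxp3 that acts in Treg induction outside the thymus, and the level of Foxp3 RNA is no check of that deletion. There were 4 groups of 1 library each, made from the pooled nodes of 3 mice. The labels give 10x 3′ v3 chemistry, while the cell barcodes look like those of another 10x kit, which was not settled. No value below therefore has a replicate, all intervals cover counting error only, and a library cannot be told apart from its batch or its group. Values for the 4 libraries are always given in the order germ-free Foxp3GFP, colonized Foxp3GFP, germ-free Foxp3CNS1- and colonized Foxp3CNS1-.

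Regulatory T (Treg) cells are CD4 T cells that hold immune responses in check, and their defining transcription factor is Foxp3. Some arise in the thymus and others are induced from conventional T cells at the periphery, above all in the gut and the nodes that drain it. Resting Treg cells keep the lymph node homing receptor CCR7, while effector Treg cells lose it and gain receptors and cytokines that act in tissue. Of the marker genes, Gsta4 encodes a glutathione S-transferase that detoxifies products of lipid peroxidation, Capn3 a calcium-dependent protease best known from skeletal muscle, and Zbtb20 a zinc finger repressor. Ssbp2 encodes a partner of the LDB1 transcription complex, Abcg1 a transporter that exports cholesterol, and Igf2r the receptor that sorts mannose-6-phosphate-tagged enzymes to lysosomes.

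Subset s2 held 374, 333, 353 and 380 cells in the 4 libraries, with 1071690, 1049785, 890302 and 1114428 UMIs (unique molecular identifiers, each standing for 1 captured RNA molecule). Its median UMIs per cell were 2521.5, 2840, 2203 and 2699.5, beside 2253.5, 2813, 2104 and 2731 in the other subset cells. The share of subset cells was 23.8%, 16.2%, 18.8% and 10.8%, and these shares were not compared between groups, because marker levels of the other subset cells varied with the library too (Ssbp2 had colonized to germ-free log2 ratios of -0.94 and -0.61 there). In the authors' first clustering of all cells, 1361 s2 cells (94.5%) were in cluster 6, 52 in cluster 3, 26 in cluster 0 and 1 in cluster 8. Of the 1440 cell barcodes, 22 also occurred in another library, 2 of them as an s2 cell there.

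Foxp3 (mm10 chromosome X, 7573644 to 7595245), the gene targeted in both strains, was present in s2 of every library at 160.5, 151, 143 and 107 CPM. CPM, the usual sequencing-depth unit, is a gene's UMI count scaled to the total UMIs of the cells named. The share of s2 cells with a Foxp3 UMI was 32.6%, 34.5%, 23.2% and 22.4%, and 28.1% over the 4 libraries. In clusters 1 and 2 of the first clustering, which carry naive T cell markers and should mostly lack Foxp3, it was 5.54% at median UMIs of 2601, 2856, 2494 and 2830.0. After every cell was thinned to 1000 UMIs, which left out 15 s2 cells, the shares were 11.9% in s2 and 1.78% in clusters 1 and 2. Subsets s0 and s1 of the second clustering had 36.9% and 26.6% before thinning.

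The marker genes were low in absolute terms, and Gsta4 had the highest of their ratios of s2 to the other subset cells in every library. Gsta4 (mm10 chromosome 9, 78182774 to 78209349) stood at 67.2, 53.3, 68.5 and 50.2 CPM in s2 against 24, 17.2, 25.6 and 19.5 in the other subset cells, a log2 ratio of 1.37 to 1.64. Of all Gsta4 UMIs in subset cells, 245 of 759 (32.3%) lay in s2, which held 14.1% of all their UMIs. A Gsta4 UMI was seen in 10.4% of s2 cells, 7.38% of s1, 4.33% of s0 and 1.35% of clusters 1 and 2, or in 4.21% of s2 cells after thinning.

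Capn3 (chromosome 2, 120456019 to 120504913) had 115, 82.9, 99.97 and 62.8 CPM in s2 against 46, 37.8, 61.5 and 43.7 in the other subset cells. The log2 ratio was 1.32, 1.13, 0.70 and 0.52 in this order, so the gap was widest in the germ-free Foxp3GFP and narrowest in the colonized Foxp3CNS1- library. A Capn3 UMI was found in 19.2% of s2, 15.5% of s1, 11.5% of s0 and 3.41% of naive-like cells (clusters 1 and 2). Zbtb20 had 114, 71.4, 103 and 79.9 CPM in s2 against 69.1, 43.3, 62 and 49.4 in the other subset cells, with log2 ratios of only 0.69 to 0.74, the most even of the marker genes over the libraries. Naive-like cells had Zbtb20 too, with a UMI in 16.2% of cells against 21.5% in s2.

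Ssbp2 was the marker seen in most s2 cells (29.4%, against 19.6% of naive-like cells), at 142, 96.2, 140.4 and 120.2 CPM in s2 against 104, 54.2, 96.5 and 63.3 in the other subset cells. Abcg1 had 64.4, 50.5, 57.3 and 39.5 CPM in s2 against 33.2, 29.6, 45.7 and 28.4 in the other subset cells, and 13.1% of s2 cells against 9.25% of naive-like cells held a UMI of it. Igf2r had 70.9, 71.4, 69.6 and 66.4 CPM in s2 against 51.2, 42.7, 52.3 and 36.9 in the other subset cells, and here s1 stood as high as s2, with a UMI in 15.8% of s1 and 15.6% of s2 cells. For Zbtb20, Ssbp2, Abcg1 and Igf2r the shares in naive-like cells, at 8.57% or more, mean that a UMI of one of them did not by itself tell s2 from such cells.

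**Figure D1:**
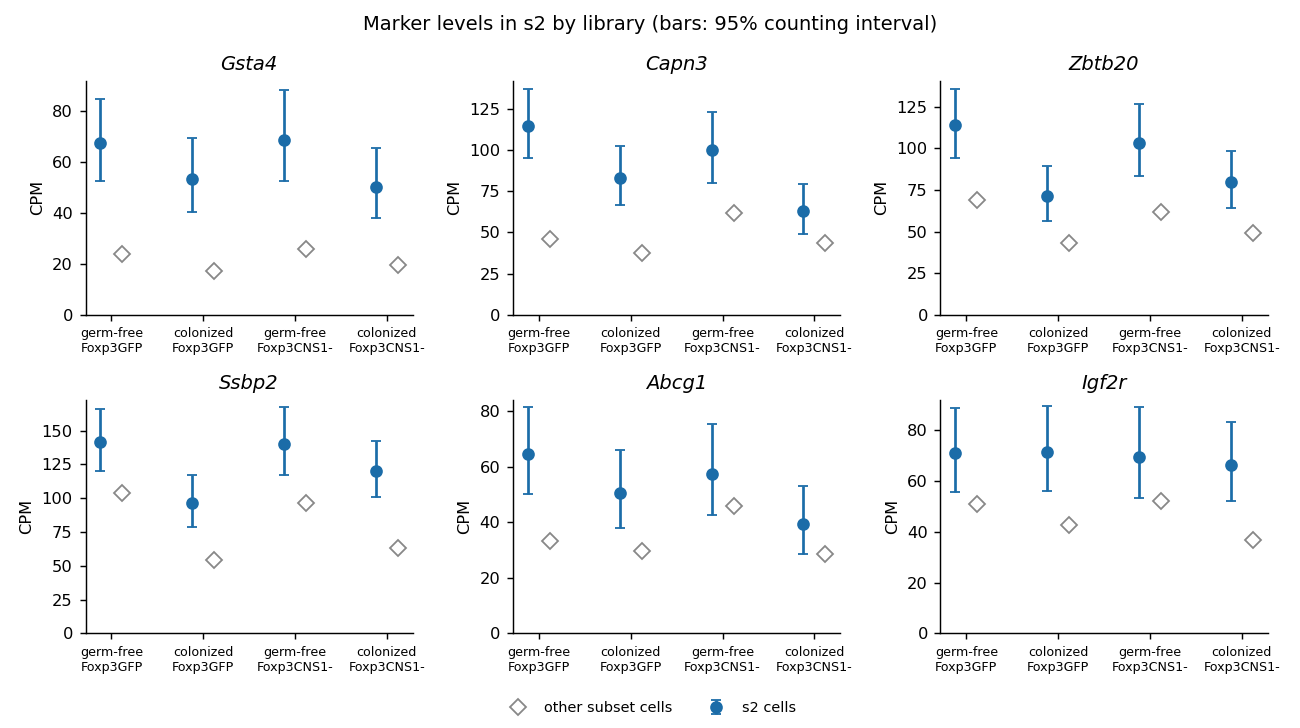
Level of each marker gene (CPM, vertical axes) in s2 cells (filled circles, bars are 95% counting intervals) and in the other subset cells (open diamonds) of each library. The s2 level is above that of the other subset cells in all 4 libraries for all 6 genes, and is lower in the colonized than in the germ-free libraries for all but Igf2r in Foxp3GFP.

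Few s2 cells showed several markers at this depth. No UMI of any of the 6 genes was found in 487 s2 cells (33.8%), against 49.2% of the other subset cells. A single marker was seen in 522 s2 cells (36.2%), 2 in 286 (19.9%), 3 in 104, 4 in 37 and 5 in 4. No cell had a UMI of all 6, which allows up to 0.256% of s2 cells with such UMIs at this depth (exact binomial) and does not limit the cells that express all 6.

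Beyond the markers, s2 had more RNA of some resting genes and less of division and effector genes than the other subset cells. Of 10417 genes with at least 50 UMIs over s2 and the other subset cells, 4 (0.0384%) were at least 2-fold higher in s2 in all 4 libraries and 113 (1.08%) at least 2-fold lower. The 4 were Gsta4, Car11, which encodes a catalytically inactive carbonic anhydrase relative, Art4, an ADP-ribosyltransferase family member, and the zinc finger gene Zfp267. After thinning to 1000 UMIs none of the 4 was 2-fold higher in every library among genes that still reached 50 UMIs, and the lowest of the 4 Gsta4 log2 ratios was 0.43 in place of 1.37. With each cell weighing the same it was 0.94. Car11 had log2 ratios of 2.28, 2.33, 1.39 and 1.63 but a UMI in only 2.29% of s2 cells. Without regard to size, 866 genes (8.31%) were higher and 2555 (24.5%) lower in all 4 libraries, and the median gene had a log2 ratio of -0.11.

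Genes of lymph node homing and survival were among those higher in s2 in every library. Ccr7, the receptor for the chemokines of the T cell zone, had 181, 219, 176 and 221 CPM in s2 against 145, 145, 136 and 142 in the other subset cells. Bcl2, the founding antiapoptotic gene of its family, had 436, 380.1, 404 and 371 CPM in s2 against 341, 236, 329 and 264 in the other subset cells. Over the 4 libraries together, Ccr7 stood at 200 CPM in s2, 218 in s1 and 383 in naive-like cells, and Bcl2 at 397, 469 and 448. Neither gene was thus higher in s2 than in s1 or naive-like cells. Gpr83, a G protein-coupled receptor gene typical of Treg cells, had 173, 160.0, 119 and 137 CPM in s2 against 110.4, 105, 90.4 and 103 in the other subset cells. Over the 4 libraries together it stood at 143 CPM in s0 and 148 in s1, within the range of s2. Gsto1, of another glutathione transferase class than Gsta4, had 55.1, 54.3, 42.7 and 40.4 CPM in s2 against 33.8, 33.9, 30.3 and 28.3 in the other subset cells. In s0 and s1 Gsto1 stood at 24.0 and 34.4 CPM. Of the 18 measured genes of the resting and naive list, 5 were higher in all 4 libraries and 3 lower, where 8.31% and 24.5% of all genes were. The list median was 0.11. Bach2 and Foxp1, repressors that keep lymphocytes quiescent, were among the 5 (median log2 ratios 0.57 and 0.47), and Tcf7 was among the 3 at -0.29.

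Genes of effector differentiation and of division were lower. Lgals1, which encodes galectin-1, had 134, 106, 148 and 140.0 CPM in s2 against 469, 775, 417 and 716 in the other subset cells. S100a6, a calcium-binding protein gene high in activated T cells, had 38.3, 41, 60.7 and 44.9 CPM in s2 against 154, 294, 148 and 311 in the other subset cells. Of the S100, galectin and annexin list, 12 of 13 measured genes were lower in all 4 libraries (median -0.76), where 24.5% of all genes were. S100a4, S100a6, Lgals1 and Lgals3 were lower by at least 2-fold in each. Icos, a costimulatory receptor gene of effector T cells, had 76.5, 101, 98.8 and 101 CPM in s2 against 201, 250.2, 204 and 251 in the other subset cells. Pooled over the libraries, Icos stood at 94.3 CPM in s2, 97.4 in s1 and 379 in s0, so s1 was level with s2. In the Treg effector list 10 of 18 genes were lower in all 4 libraries and none higher (median -0.78), and Il10 had a median log2 ratio of -2.00, with 0.97 CPM in s2, 0.57 in s1 and 20.5 in s0.

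All 16 measured proliferation genes were lower in s2 in every library (median -3.19), 12 of them by at least 2-fold in each. Of all genes 24.5% were lower in every library, and 1.08% by at least 2-fold. Mki67, a marker of dividing cells, stood at 2.9 CPM in s2 and 33.9 in the other subset cells, but at 2.8 in s1 and 4.1 in s0. The low level of Mki67 was therefore shared with s0 and s1. Hmgb2, a chromatin protein gene that is high in dividing cells, had 227, 189, 228 and 245 CPM in s2 against 616, 797, 551 and 794 in the other subset cells. In s0 and s1 it stood at 252 and 234 CPM over the 4 libraries, so they shared its low level as well. Glycolysis genes were lower in all 4 libraries in 10 of 16 cases and higher in none (median -0.55), for example Ldha (median log2 ratio -0.70) and Pgk1 (-0.63).

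Genes of the markers' pathways, the markers included, were higher in all 4 libraries in 9.09% to 13% of cases by list, beside 8.31% of all genes. Of 25 measured glutathione and antioxidant genes, 3 were higher in all 4 libraries (Gsta4, Gsto1 and Gstk1) and 11 lower, where 24.5% of all genes were, among them the thioredoxin and peroxiredoxin genes Txn1 (median log2 ratio -0.67) and Prdx1 (-0.60). Capn3 was the single one of 8 calpain system genes to be higher in all 4, while Capn2, a calpain of most tissues, had -0.51. Ssbp2 was likewise the single one of 11 genes of the LDB1 group, and its paralog Ssbp3 had -0.74. Igf2r, Lamp1 and Ctss were higher and 11 of 24 lysosome genes lower, with -0.87 for Gnptab, which makes the mannose-6-phosphate tag that Igf2r binds. Of 23 sterol and lipid genes, Abcg1, Npc1 and Npc2 were higher, the last pair being the lysosomal cholesterol carriers, and 3 were lower.

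Treg signature genes were higher in s2 in every library more often than all genes were. Of 19 measured Treg core genes, 7 (36.8%) were higher in all 4 libraries and 4 lower (median 0.21). Among all genes 8.31% were higher and 24.5% lower, so the 4 lower genes were no larger a share than that. Il2ra, the high-affinity IL-2 receptor chain, had a median log2 ratio of 0.35 and Nrp1, a receptor linked to thymic origin, 0.43, whereas Tnfrsf4 and Tnfrsf9, costimulatory receptors of activated Treg cells, had -0.49 and -0.66. Against s0 and s1 Il2ra was not higher, at 173 CPM in s2, 199 in s0 and 178 in s1, nor was Nrp1, at 80.0, 80.0 and 81.2. Tnfrsf4 stood at 510 CPM in s2, 1427 in s0 and 401 in s1, so it was lower than in s0 but not than in s1. In the list of genes linked to thymic origin 3 of 6 were higher in all 4 libraries and none lower (median 0.33). In the list linked to peripheral induction 1 of 11 was higher, the gut homing receptor gene Ccr9, and 5 were lower (median -0.69).

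Some genes that define other cell types were near 0 in s2 and others were not. Ms4a1, a B cell surface gene, stood at 0.7 CPM, Lyz2 at 1.9 and Jchain at 2.7, and no UMI of Il17a, Il17f or Il23r was found among 4126205. Of helper cell genes, Gata3 had 87.0 CPM in s2 and 76.7 in the other subset cells, Ccl5 79.7 and 102, and Pdcd1 54.5 and 91.8. Cxcr3 had 37.1 and 70.4, Cxcr5 34.2 and 48.5, and Il4 31.3 and 23.3. Cst3, a myeloid marker, had 111 and 145, and Cd8a, of CD8 T cells, 14.1 and 5.9. Ighm, the heavy chain gene of IgM, was at 954 CPM in s2, 974 in the other subset cells and 2024 in s0, and no Pax5 UMI was found in s2. The 12 B cell and plasma genes in the count table summed to 1178, 1186, 1313 and 1188 CPM in s2 and 1290.5, 1409, 1379.9 and 1418 in the other subset cells. Cd74, the class II invariant chain, which is high in B and dendritic cells, stood at 172 CPM in s2, and the 8 myeloid and dendritic genes with it summed to 306, 281, 354 and 281 CPM. The part of such RNA in the results was not tested beyond leaving out cells with 10 or more immunoglobulin UMIs. Cells with an Hspa1a or Hspa1b UMI, genes of the heat shock response, made up 0.267%, 4.80%, 0% and 5.79% of s2, more in both colonized libraries, and the results below were also computed without them.

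Subset s2 was not uniform. A clustering of its cells alone, added after the data were seen, gave sub-cluster A with 1040 cells (72.2%) and sub-cluster B with 400 cells (27.8%). The name A went to the one with the higher Foxp3 CPM, so the direction of the Foxp3 difference was fixed by that choice. At a higher resolution 308 of the 400 cells of B stayed together in a cluster with 1 cell of A. The genes below helped to draw the sub-clusters and are a description. The Treg genes and the strongest s2 markers lay in A, and B had little Foxp3.

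Foxp3 stood at 174 CPM in A and 28.9 in B (log2 ratio 2.59), beside 24.5 in naive-like cells, and 37.2% of A but 4.25% of B cells had a UMI of it. By library B had 92.7, 22.3, 29.3 and 10.3 CPM, and the germ-free Foxp3GFP library gave 12 of its 28 UMIs. Without that library the level in B was 19 CPM. Il2ra had 221 CPM in A and 13.4 in B, Ikzf2, which encodes the Treg factor Helios, 594 and 150.5, and Il2rb, another IL-2 receptor chain, 394 and 83.5. Summed over the Treg core list, A had 5244, 5493, 5979.6 and 5620.1 CPM and B 2889, 1847, 2842 and 2065. The label of a Treg subset therefore fits A by its markers. In B, Il2ra (13.4 against 24.9 CPM) and Capg (63.9 against 92.8) were below naive-like cells. Ctla4 (69.0 against 17.4), Tnfrsf4 (210 against 61.3) and Ikzf2 (150.5 against 53.3) were above them. The levels of Foxp3 and Il2ra thus go against the label for B, other Treg genes are mixed, and B stays unnamed.

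Gsta4 followed the same split, at 75.7 CPM in A and 6.18 in B, where it was level with naive-like cells (6.2). Capn3 had 110 and 22.7 CPM, and Igf2r 84.9 and 19.6. Abcg1 differed less, with 57.7 and 36.1, and Zbtb20 (89.0 and 100) and Ssbp2 (123 and 129) did not differ beyond counting error. So Gsta4, Capn3 and Igf2r marked the Foxp3-high sub-cluster, and Zbtb20 and Ssbp2 were shared by both.

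Sub-cluster A also had more of Itgae, the integrin CD103 (102 against 4.12 CPM), Lrrc32, which displays latent TGF-β on Treg cells (123 against 9.28), and Socs2, a target of STAT5 (68.4 against 5.15). Gpr83 was at 185 CPM in A and 28.9 in B. Gata1, the erythroid transcription factor, had 43.1 CPM in A and 5.15 in B.

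Genes of helper T cells were among those that led sub-cluster B, but did not lead it alone. H2-Q2 had 54.6 CPM in B and 3.80 in A, Cxcr6 69.0 and 5.07, and Marcksl1 140 and 11.7. Of cytotoxic genes, Gzmk had 35.0 CPM in B and 0.63 in A, and Eomes 45.3 and 2.22, whereas Ccl5 was lower in B (46.4 and 90.0). Eomes in B ranged from 7.72 to 263 CPM over the libraries. Il4, the type 2 and follicular helper cytokine, had 119.5 CPM in B and 4.12 in A, with a UMI in 20.5% of B cells. Cd40lg, the helper ligand for B cells, had 90.7 and 10.1, and Pdcd1, which encodes the receptor PD-1, 156 and 23.4. Tcf7, a factor of naive, memory and follicular helper cells, had 340 CPM in B and 72.9 in A, and Gpr183, an oxysterol receptor that guides cells to follicle borders, 201 and 37.7. Of the genes that define follicular helper cells, Cxcr5 had 52.6 CPM in B and 28.5 in A, and Bcl6 25.8 and 3.49, beside 48.5 and 8.6 in the other subset cells. Subset s5 of the second clustering had 388 CPM of Pdcd1, 391 of Tcf7, 130 of Cxcr5 and 35.4 of Bcl6, all above B. Il4 stood at 100 CPM in s5. These helper cell genes were thus not particular to B. Summed over the follicular helper list, B had 2232, 1369, 1932 and 1289.7 CPM and A 474, 371, 712 and 547.

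The makeup of s2 differed between the libraries. Sub-cluster B made up 54 of 374 cells (14.4%, interval 11 to 18.4), 70 of 333 (21%, 16.8 to 25.8), 124 of 353 (35.1%, 30.1 to 40.4) and 152 of 380 (40.0%, 35.0 to 45.1). Both Foxp3CNS1- libraries thus held more of B than both Foxp3GFP libraries, and the comparisons between genotypes below are given for all s2 cells and, for named genes, beside sub-cluster A alone.

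**Figure D2:**
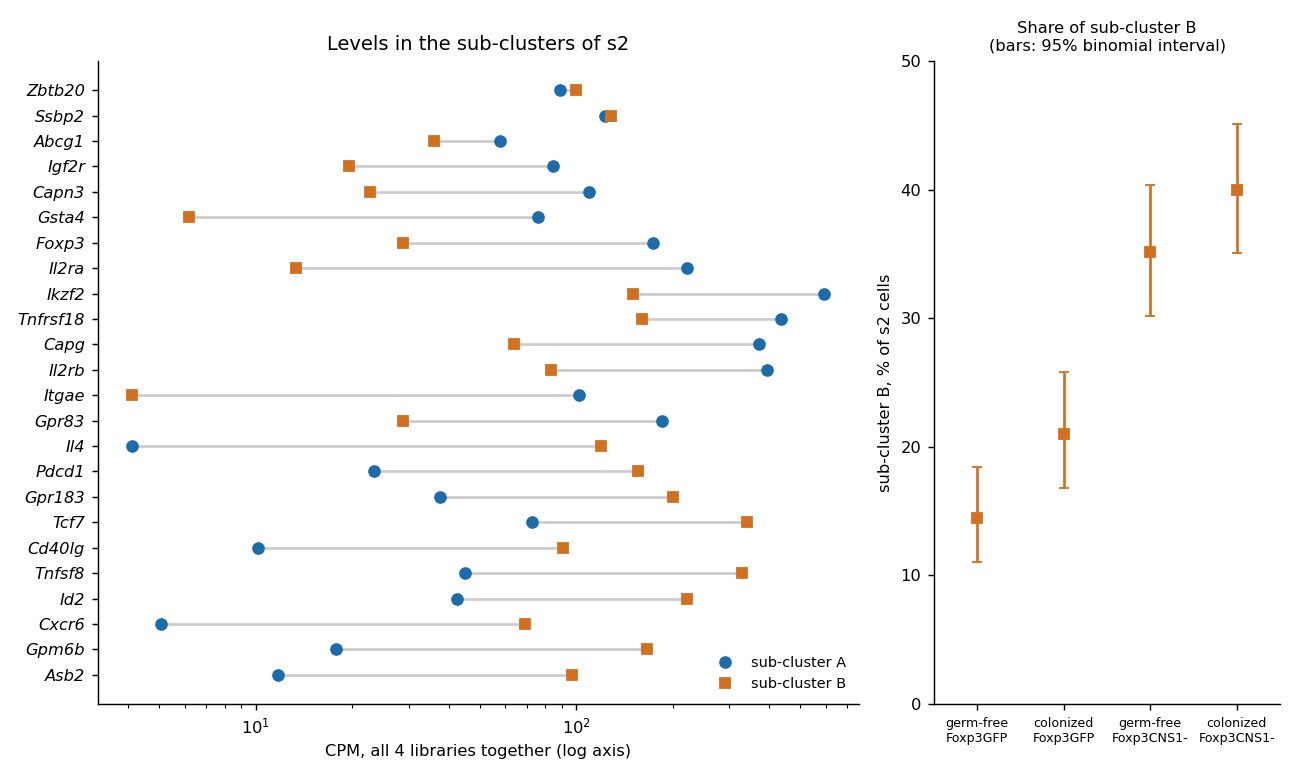
Left, level of marker, Treg and helper genes (CPM over the 4 libraries, log axis) in sub-cluster A (circles) and sub-cluster B (squares) of s2. Right, share of sub-cluster B among s2 cells of each library, with 95% binomial intervals. Gsta4, Foxp3 and Il2ra lie far higher in A, Zbtb20 and Ssbp2 nearly coincide, Il4 and Pdcd1 lie higher in B, and the share of B runs from 14.4% to 40.0%.

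The first question was what colonization went with inside s2. In Foxp3GFP mice, 66 of 4404 genes (1.5%) that reached 50 UMIs in the pair of libraries differed at least 2-fold, 38 (0.863%) higher and 28 (0.636%) lower after colonization. Interferon-stimulated genes made up most of the leading genes that were higher. In sub-cluster A alone, 36 of 3835 genes (0.939%) were higher and 22 (0.574%) lower, and 40 of these 58 were among the 66.

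Ifit1, which encodes an antiviral RNA-binding protein, stood at 12.1, 132, 12.4 and 81.7 CPM, so that both colonized libraries lay far above both germ-free ones. Colonized to germ-free, its log2 ratio was 3.45 (2.63 to 4.39) for Foxp3GFP mice and 2.72 (1.82 to 3.78) for Foxp3CNS1- mice. Its neighbour and partner Ifit3 had 7.46, 81.9, 2.25 and 55.6 CPM, log2 ratios 3.46 (2.41 to 4.71) and 4.63 (2.72 to 7.71). Rtp4, an interferon-induced chaperone of receptors, had 14.9, 121, 15.7 and 100.5 CPM, with 3.02 (2.26 to 3.87) and 2.68 (1.87 to 3.59). Each of these genes was found at a few UMIs in the germ-free libraries (Ifit3 at 8 and 2), which makes the intervals wide.

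Irf7, the factor that amplifies type I interferon production, had 16.8, 129, 32.6 and 102 CPM. The log2 ratios were 2.94 (2.22 to 3.73) and 1.65 (1.05 to 2.29). Isg15, a ubiquitin-like modifier, had 48.5, 227, 35.9 and 158 CPM and log2 ratios of 2.22 (1.79 to 2.69) and 2.14 (1.59 to 2.73). Usp18, which removes ISG15 and dampens interferon receptor signals, had 19.6, 74.3, 16.8 and 52.9 CPM. Bst2, the tetherin that retains budding virus, had 63.5, 184, 79.7 and 182 CPM, and Xaf1, a proapoptotic interferon target, 23.3, 102, 37.1 and 77.2.

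Ifi27l2a was the most abundant of these genes, at 661, 1932, 738 and 1682 CPM, and its UMIs came from 250, 305, 228 and 317 s2 cells. The log2 ratios were 1.55 (1.42 to 1.67) and 1.19 (1.06 to 1.32). Ly6a, which encodes the surface protein Sca-1, had 77.4, 319, 76.4 and 295 CPM and log2 ratios of 2.04 (1.69 to 2.41) and 1.95 (1.57 to 2.35). Ly6a and Ifi27l2a were both lower in s2 than in the other subset cells of every library, with median log2 ratios of -1.09 and -0.54. Plac8 had 31.7, 131, 11.2 and 82.6 CPM, but its UMIs came from 9, 35, 4 and 28 cells.

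Over the interferon-stimulated list, 28 of 29 measured genes were higher after colonization in Foxp3GFP, where 46.7% of all genes were, and 17 were at least 2-fold higher. The list median was 1.43, and 1.41 in sub-cluster A. The same list had a median of 0.90 in the other subset cells, 0.70 in s1, 1.21 in s0 and 0.92 in naive-like cells, so higher interferon genes were measured outside s2 as well. Summed over its 39 genes in the table the list reached 3405, 6899.5, 3617 and 5817 CPM. Without the cells that held an Hspa1a or Hspa1b UMI the median was 1.35.

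Immunity-related GTPases, which attack vacuoles of pathogens, were higher too. Of the guanylate-binding protein (GBP) and IRG list, 8 of 10 genes were higher in Foxp3GFP (median 0.69), where 46.7% of all genes were. Gbp2 had 89.6, 231, 110.1 and 132 CPM, a log2 ratio of 1.37 (1.02 to 1.73) in Foxp3GFP and of 0.26 (-0.12 to 0.64) in Foxp3CNS1-, an interval that includes 0. Igtp, of the IRG family, had 109, 196, 82 and 146 CPM and like ratios in both genotypes (0.85 and 0.83). MHC class I and peptide loading genes were higher in 17 of 17 cases in Foxp3GFP by a small margin (median 0.30). In Foxp3CNS1- 12 of 17 were higher (median 0.04), where 45.8% of all genes were. B2m, the shared light chain of class I molecules, had 3301, 4039, 3392 and 3945 CPM.

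The promoters of the interferon genes were searched for a shared motif. The interferon-stimulated response element, searched as GAAA, any 2 bases and GAAA on both strands of the 250 bases before a start site, is bound by factors of the interferon response. Of 39 list members in the count table, 29 matched a RefSeq promoter (GRCm38.p6), and 17 of the 29 (58.6%) held a match, against 936 of 27025 genes (3.46%). The promoters of Ifit1 (chr19:34640639-34640888, plus strand), Ifit3 (chr19:34583279-34583528, plus strand) and Isg15 (chr4:156200819-156201068, minus strand) are shown. These genes ranked 1, 2 and 5 of the named genes higher after colonization in Foxp3GFP, and each holds a match. Their matches differ in layout, 2 separate ones in Ifit1 and Ifit3 and 3 overlapping ones in Isg15. Each sequence runs 5′ to 3′ on the strand of its gene and ends at the base before the start site, with capitals for the matched bases.
Ifit1: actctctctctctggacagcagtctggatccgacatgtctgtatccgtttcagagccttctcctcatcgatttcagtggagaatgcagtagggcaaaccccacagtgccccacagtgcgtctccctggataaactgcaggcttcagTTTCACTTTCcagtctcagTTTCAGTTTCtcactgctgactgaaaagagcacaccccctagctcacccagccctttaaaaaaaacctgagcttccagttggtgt
Ifit3: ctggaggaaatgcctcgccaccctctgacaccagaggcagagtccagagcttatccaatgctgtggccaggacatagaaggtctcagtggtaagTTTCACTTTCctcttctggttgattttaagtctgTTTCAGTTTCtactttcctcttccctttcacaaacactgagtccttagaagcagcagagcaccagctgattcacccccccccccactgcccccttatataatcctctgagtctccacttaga
Isg15: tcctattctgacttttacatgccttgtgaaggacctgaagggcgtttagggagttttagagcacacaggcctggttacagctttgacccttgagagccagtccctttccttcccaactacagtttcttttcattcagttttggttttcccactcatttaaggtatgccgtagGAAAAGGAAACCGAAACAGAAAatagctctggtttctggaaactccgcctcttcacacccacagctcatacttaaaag
A match is a string of letters and no measured binding site. No match was found in this window of Irf7 or Xaf1, and the AP-1 motif TGACTCA, searched on both strands, was in 0 of 14 promoters of AP-1 and immediate early genes and in 4 of 29 of the interferon list (13.8%), against 5.16% of all.

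**Figure D3:**
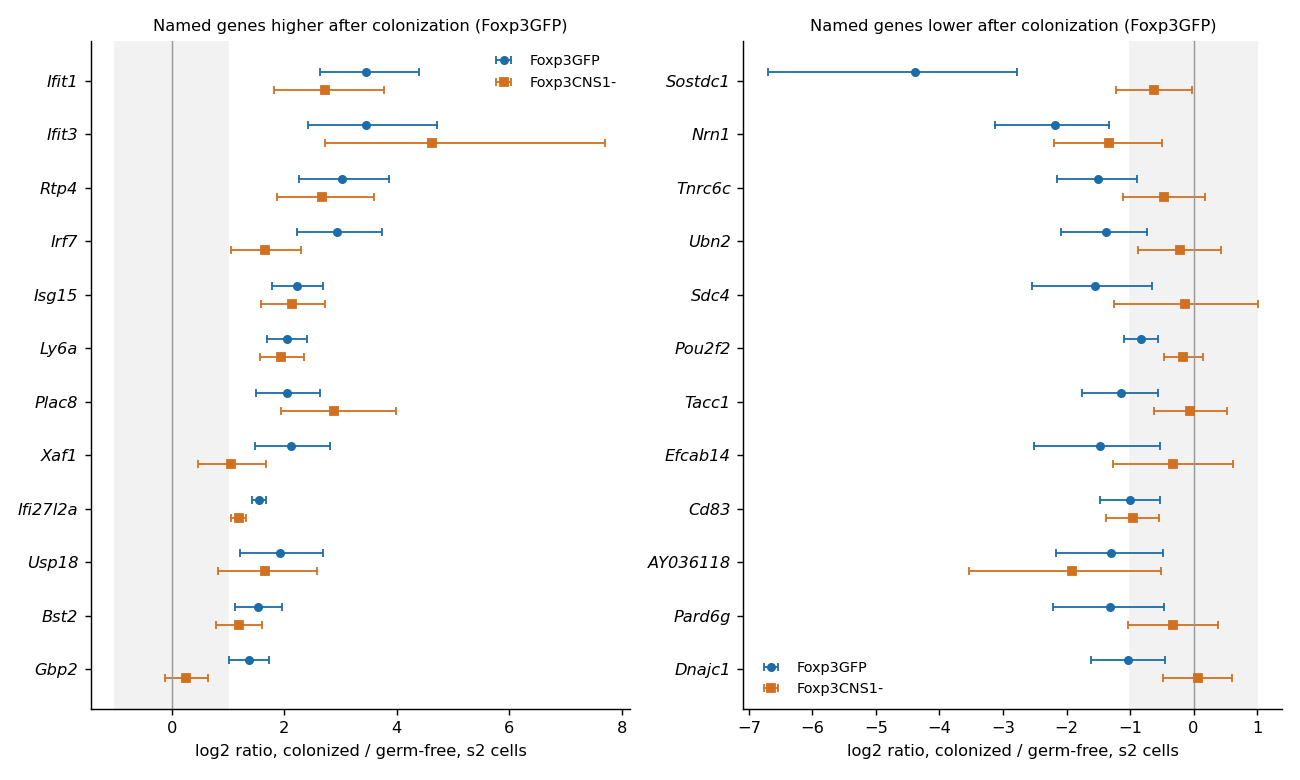
Log2 ratio of colonized to germ-free libraries in s2 cells (horizontal axes, bars are 95% counting intervals, shading marks less than 2-fold) for the 12 leading genes higher (left) and 12 lower (right) in Foxp3GFP, with Foxp3GFP as circles and Foxp3CNS1- as squares. The interferon-stimulated genes on the left lie to the right of 0 in both genotypes. On the right, Sostdc1 has the widest interval and differs most between genotypes.

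Among genes that were lower after colonization, some are known from T cell activation. Nrn1, a neuritin gene found in anergic and regulatory T cells, had 60.7, 13.3, 42.7 and 17 CPM, with log2 ratios of -2.19 (-3.13 to -1.34) in Foxp3GFP and -1.32 (-2.20 to -0.49) in Foxp3CNS1-. Cd83, an activation marker, had 108, 54.3, 139 and 71.8 CPM and log2 ratios of -1.0 (-1.48 to -0.53) and -0.96 (-1.38 to -0.54). Pou2f2, which encodes the octamer factor Oct-2, had 300.5, 169.6, 186 and 167 CPM and was thus high in the germ-free Foxp3GFP library alone. Sostdc1, a secreted antagonist that follicular cells make, had 59.7, 2.86, 60.7 and 39.5 CPM, but only 10, 2, 10 and 10 cells held a UMI of it.

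All 5 markers other than Igf2r had a log2 ratio below 0 after colonization in both genotypes. Zbtb20 had -0.67 (-1.11 to -0.25) in Foxp3GFP and -0.37 (-0.81 to 0.06) in Foxp3CNS1-, and Capn3 -0.47 (-0.88 to -0.06) and -0.67 (-1.14 to -0.20). The Gsta4 ratios, -0.33 (-0.86 to 0.19) and -0.45 (-1.0 to 0.10), have intervals that include 0. The list median was -0.41 in each genotype, and -0.38 and -0.50 in the other subset cells. Lower marker levels after colonization were therefore seen outside s2 as well.

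T cell transcription factors were lower after colonization in 20 of 25 measured cases in Foxp3GFP (median -0.25) and 20 of 26 in Foxp3CNS1- (median -0.20), where 53.3% and 54.2% of all genes were. Ikzf2 had 594, 449.6, 545 and 383 CPM, with log2 ratios of -0.40 (-0.58 to -0.23) and -0.51 (-0.70 to -0.32). Foxp3 itself had -0.09 (-0.41 to 0.23) in Foxp3GFP and -0.42 (-0.79 to -0.05) in Foxp3CNS1-, the latter -0.28 within sub-cluster A. Of 17 measured Treg core genes, 10 and 13 were lower, with medians of -0.03 and -0.17. Nrp1 had 107, 68.6, 83.1 and 61.9 CPM, and Lrrc32 went the other way in Foxp3GFP, at 84.9, 131, 77.5 and 90.6 CPM and a log2 ratio of 0.62 (0.23 to 1.02).

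In Foxp3CNS1- mice, 60 of 4354 genes (1.38%) differed at least 2-fold on colonization, 29 (0.666%) higher and 31 (0.712%) lower. In sub-cluster A alone these were 26 of 3121 (0.833%) and 20 (0.641%), 24 of them among the 60. The interferon list was higher in 27 of 28 cases, where 45.8% of all genes were, 13 of them by at least 2-fold (median 0.71, 0.90 in sub-cluster A and 0.61 in the other subset cells).

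Genes of resting cells were part of the higher group in this genotype. Igfbp4, a gene high in naive T cells, had 58.8, 71.4, 21.3 and 77.2 CPM, and the log2 ratio of 1.85 (1.13 to 2.65) came with a low level in the germ-free Foxp3CNS1- library. Ly6c1, a surface protein gene of resting T cells that interferon also raises, had 45.7, 92.4, 22.5 and 72.7 CPM and log2 ratios of 1.01 (0.50 to 1.54) and 1.69 (0.97 to 2.48). Of the resting and naive list 12 of 17 genes were higher in Foxp3CNS1- (median 0.22), where 45.8% of all genes were. In Foxp3GFP 8 of 17 were higher (median -0.07), near the 46.7% of all genes there. The difference between the genotypes was not tested.

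Dusp2, a phosphatase that ends MAP kinase signals, had 144, 90.5, 153 and 73.6 CPM and a log2 ratio of -1.05 (-1.47 to -0.65) here and -0.67 (-1.05 to -0.29) in Foxp3GFP. Zfp36l1, which speeds the decay of cytokine messages, had 192, 143, 237 and 130.1 CPM and -0.87 (-1.18 to -0.55) here. Ahnak, a large scaffold protein gene, had 50.4, 32.4, 55 and 18.8 CPM and a log2 ratio of -1.55 (-2.36 to -0.78). The largest ratios, of Spp1 (193 CPM in the germ-free Foxp3CNS1- library) and Xcl1 (61.8), rest on 1 and at most 5 cells and say nothing of s2 as a whole.

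The second question was how s2 cells of the 2 genotypes differed at the same microbial status. Each of these comparisons shares its libraries with those on colonization. In germ-free mice 43 of 4294 genes (1%) differed at least 2-fold, 32 (0.745%) higher and 11 (0.256%) lower in Foxp3CNS1-, and the median gene was 0.06 higher on the log2 scale. With that median set to 0 the counts were 26 and 19. In sub-cluster A 20 of 3506 genes (0.57%) were higher and 9 (0.257%) lower, and 8 of these were among the 43.

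Several of the higher genes were genes of sub-cluster B. Il4 had 6.53, 15.2, 69.6 and 39.5 CPM, a log2 ratio of 3.41 (2.29 to 4.79) in germ-free mice. In B it had 46.3, 89, 194 and 106 CPM and in A 1.06, 0, 14.6 and 4.13, where the germ-free log2 ratio was 3.78 but rests on 1 and 9 UMIs. Gpm6b, a myelin proteolipid family gene, had 36.4, 26.7, 102 and 52.9 CPM and a log2 ratio of 1.49 (0.93 to 2.07) in s2 but 0.24 in A. Asb2, a ubiquitin ligase subunit, had 1.59 (0.77 to 2.47) in s2 and 0.02 in A, and Tnfsf8, the CD30 ligand, 0.98 (0.59 to 1.37) and -0.27. Within A none of Gpm6b, Asb2 and Tnfsf8 was more than 0.24 higher.

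Other genes differed within A as well, some by less. Slc9a9, a sodium and proton exchanger gene, had 1.51 (0.71 to 2.37), or 1.46 in A. Smco4 had 57.9, 68.6, 151 and 85.2 CPM and a log2 ratio of 1.38 (0.93 to 1.84), or 0.89 in A. Among the lower genes Otulin, which removes linear ubiquitin chains, had 39.2, 35.2, 8.99 and 24.2 CPM and -2.12 (-3.43 to -1.02), or -1.79 in A. Cd55, a brake on complement, had 41.1, 29.5, 12.4 and 10.8 CPM, low in both Foxp3CNS1- libraries, with -1.73 (-2.83 to -0.76) or -1.18 in A. Rel, the NF-κB subunit c-Rel that acts in thymic Treg development, had 62.5, 31.4, 32.6 and 38.6 CPM and -0.94 (-1.62 to -0.29), or -1.08 in A.

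Lists of helper and inhibitory receptor genes were mostly higher. All 9 measured follicular helper genes were higher in germ-free Foxp3CNS1- (median 0.61), where 58.6% of all genes were, and 3 of 3 measured in A were. That share is for all s2 cells. The share of all genes higher within A is not given here, so counts within A have no background. Coinhibitory and costimulatory receptors were higher in 15 of 17 cases (median 0.37), and in 13 of 13 in A (median 0.24), beside -0.02 in the other subset cells. Ctla4, the inhibitory receptor that Treg cells depend on, had 132, 114, 176 and 129 CPM and a log2 ratio of 0.42 (0.09 to 0.76), or 0.61 in A. Of the Treg effector list 7 of 7 were higher (median 0.43, 0.46 in A), among them Maf, a factor of IL-10-producing cells, at 114, 96.2, 193 and 116 CPM. The interferon list had 10 of 21 genes higher and a median of -0.02 in germ-free mice.

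Treg core genes differed in direction between all s2 cells and sub-cluster A. In germ-free mice 10 of its 17 genes were lower in Foxp3CNS1- over all s2 cells, where 41.4% of all genes were. The list median was -0.13 over all s2 cells and 0.19 within A, where 14 of 17 genes were higher in Foxp3CNS1-. Counts within A again have no share of all genes beside them. Foxp3 stood at -0.17 (-0.51 to 0.17) in s2 and 0.18 in A, and Il2ra -0.23 (-0.55 to 0.09) and 0.08. Of the markers 1 of 6 was higher over all s2 cells and 3 of 6 within A, with Gsta4 at 0.03 and 0.39, Igf2r at -0.03 and 0.27, and Ssbp2 at -0.01 and -0.13. A level of Foxp3, Il2ra, Gsta4 or Igf2r over all s2 cells holds both the share of B and the level in A, and the part of each was not tested.

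**Figure D4:**
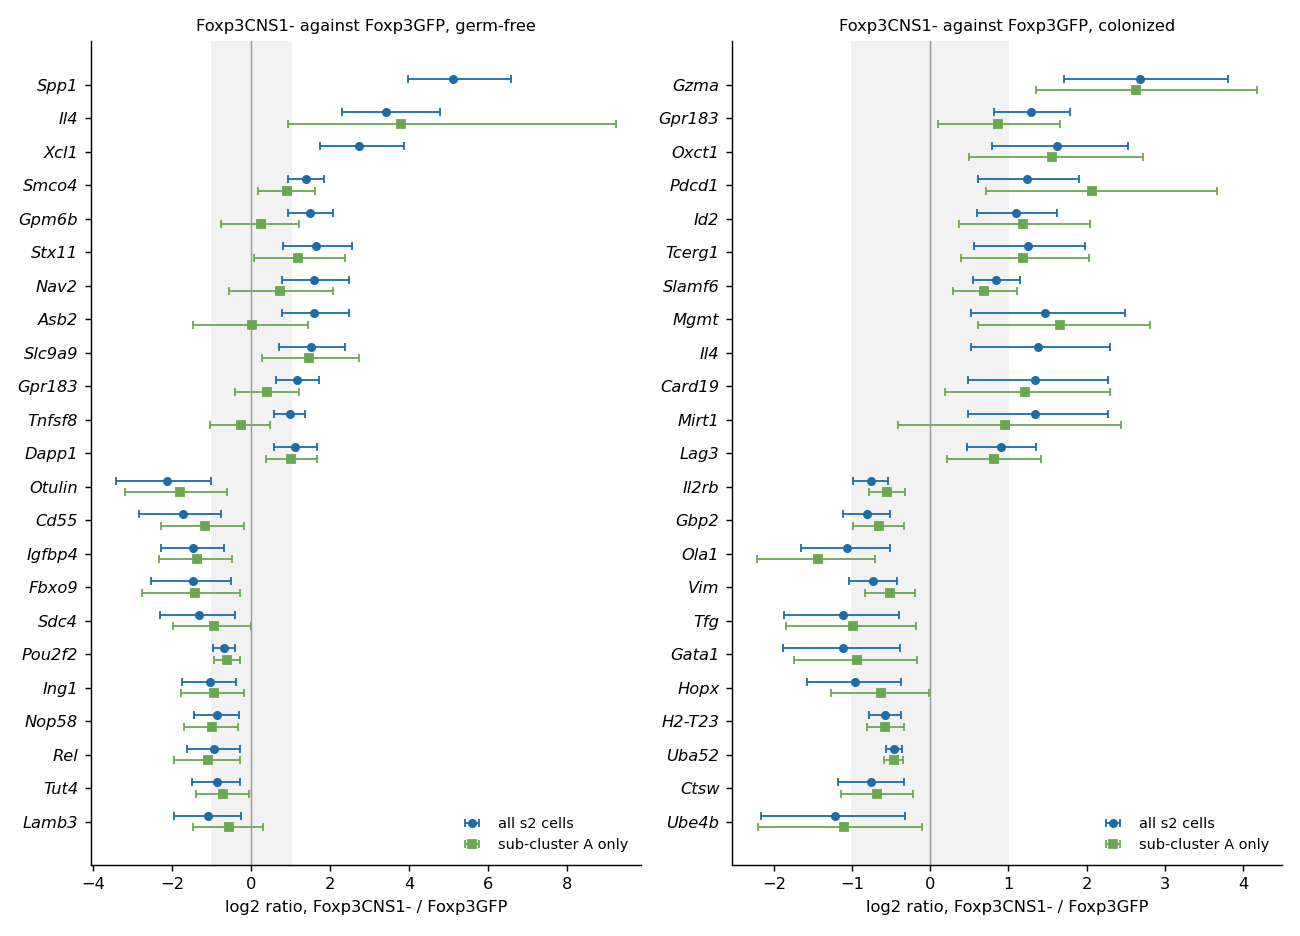
Log2 ratio of Foxp3CNS1- to Foxp3GFP libraries (horizontal axes, bars are 95% counting intervals, shading marks less than 2-fold) for the leading genes in germ-free (left) and colonized mice (right), over all s2 cells (circles) and sub-cluster A alone (squares). For Gpm6b, Asb2 and Tnfsf8 on the left the square lies near or below 0, while for Otulin and Oxct1 the square lies close to the circle.

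In colonized mice 32 of 4463 genes (0.717%) differed at least 2-fold between genotypes, 22 (0.493%) higher and 10 (0.224%) lower in Foxp3CNS1-. With the median gene, at 0.06, set to 0 these were 21 and 15. In sub-cluster A 10 of 3480 genes (0.287%) were higher and 3 (0.0862%) lower, 5 of them among the 32.

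Higher genes again included those of B. Gpr183 had 42.9, 48.6, 95.5 and 118 CPM. Its log2 ratio was 1.29 (0.81 to 1.78), or 0.87 in A, after one of 1.15 (0.62 to 1.70) in the germ-free pair. Pdcd1 had 43.9, 28.6, 82 and 67.3 CPM and 1.24 (0.61 to 1.90), or 2.07 in A, where the Foxp3GFP library had 6.90 CPM. Id2, a repressor of E proteins, had 84.9, 45.7, 113 and 97.8 CPM and 1.10 (0.59 to 1.62), or 1.19 in A. Oxct1, an enzyme of ketone body use, had 25.2, 15.2, 31.4 and 46.7 CPM and 1.61 (0.78 to 2.52), or 1.56 in A. Slamf6, a homophilic receptor of T cells, had 164, 137, 228 and 246 CPM and 0.84 (0.55 to 1.14), or 0.69 in A. Gzma, the protease granzyme A, had 1.87, 9.53, 18 and 61 CPM from 2, 4, 7 and 12 cells.

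Genes of IL-2 signalling were lower in colonized Foxp3CNS1- mice over all s2 cells. Il2rb had 342, 416, 276 and 246 CPM and a log2 ratio of -0.76 (-0.98 to -0.54), and -0.56 within A. Socs2 had 49.5, 70.5, 44.9 and 48.5 CPM, a ratio of -0.54 (-1.07 to -0.02) in s2 and -0.20 in A, and Il2ra -0.36 (-0.67 to -0.06) and -0.0063. Of the IL-2 and STAT5 list 9 of 10 genes were lower (median -0.35), where 41.7% of all genes were, but the median within A was -0.03.

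Interferon genes were a little lower in colonized Foxp3CNS1- than in colonized Foxp3GFP mice. Of 32 measured list members 29 were lower, where 41.7% of all genes were, with a median of -0.27 in s2, -0.24 in A and -0.21 in the other subset cells. Gbp2 had a log2 ratio of -0.81 (-1.12 to -0.51), or -0.66 in A, and the GBP and IRG list was lower in 8 of 10 cases (median -0.42), which turned to 0.032 in s2 cells with a Foxp3 UMI. H2-T23, a nonclassical MHC class I gene, had 292, 449.6, 338 and 301 CPM and -0.58 (-0.79 to -0.38), or -0.57 in A. Whether colonization acted differently in the genotypes was not tested.

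Gata1 and Hopx, transcriptional regulators higher in A than in B, were lower too. Gata1 had 39.2, 46.7, 29.2 and 21.5 CPM and a ratio of -1.12 (-1.88 to -0.38), or -0.93 in A, and Hopx had 46.7, 66.7, 56.2 and 34.1 CPM and -0.97 (-1.58 to -0.38), or -0.63 in A. Vim, the intermediate filament gene vimentin, had 153, 218, 133 and 131 CPM and -0.74 (-1.05 to -0.43), or -0.52 in A.

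**Figure D5:**
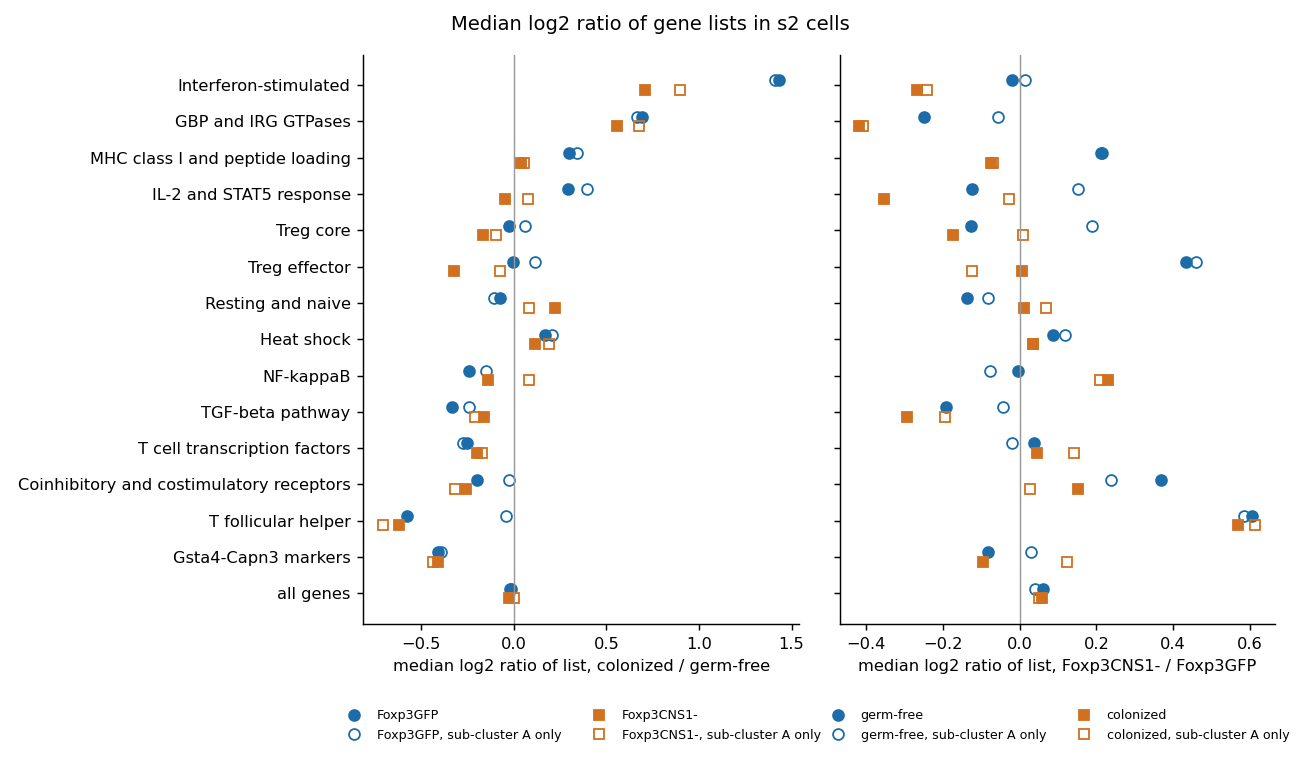
Median log2 ratio of gene lists in s2 cells for colonized against germ-free libraries (left) and Foxp3CNS1- against Foxp3GFP libraries (right); filled symbols are all s2 cells and open ones sub-cluster A alone, where fewer members are measured. The interferon list lies farthest to the right on the left panel, and on the right panel the Treg core and IL-2 lists move toward or past 0 when only sub-cluster A is used.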

How the data were processed

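The deposited UMI counts are raw 10x gene counts of single cells (3′ per the labels' protocols), 17478 cells by 13314 genes. Per the submitters' processing notes the authors used Cell Ranger, Scanpy 1.5.1 and mm10. For the Cell Ranger version and cell filters, nothing is given in the sources used. Cell labels came from the authors' deposited cell table, which lists 17251 cells, 16948 of them kept. Of its columns, 3 were not used. No doublet caller was run here.

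UMIs were summed over s2 cells of a library and scaled to CPM. Genes needed 50 UMIs in the pair of libraries compared, and each log2 ratio has an exact Clopper-Pearson interval (95%). With 1 library per group there was no test. Named genes were the 6 markers, the 25 highest and 15 lowest genes of s2 against other subset cells in the library where the difference was least (a UMI in at least 10% of cells), and in each comparison the 12 genes per direction whose interval lay farthest from 0. Other genes came from the 36 lists or were chosen after their values were seen. Some named genes are not reported here. Members and lists were chosen with earlier results of these data known. Sub-clusters came from Leiden clustering of s2 cells (leidenalg 0.10.2, scanpy 1.11.5). Other work used Python 3.11.15, numpy 2.4.6, pandas 2.3.3, scipy 1.17.1 and matplotlib 3.10.9.

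The method was tested on simulated counts with 100 genes raised and 100 lowered. For colonization in Foxp3GFP (4206 genes) 95.9% of intervals held the true ratio, and 11 unchanged genes passed 2-fold. The simulated counts varied by counting error only, which the intervals assume, so a share of this size was built in. Neither figure covers spread between cells or libraries, and the rate of false genes in the real data was not tested. Alternatives were thinning to 1000 UMIs, equal weight per cell, other UMI minimums and folds, scaling to the median gene, cells of cluster 6, cells with a Foxp3 UMI, cells without high UMI, immunoglobulin or Hspa1a and Hspa1b counts, and, added after seeing the data, sub-cluster A alone.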

Additional observations from a re-analysis of the deposited data

How the results depend on the processing

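Counts of genes past 2-fold moved with every setting that changes depth or threshold, given here for colonization in Foxp3GFP and Foxp3CNS1- and for genotype in germ-free and colonized mice. As shares of the genes tested, the main counts were 1.5%, 1.38%, 1% and 0.717%. Thinning to 1000 UMIs gave 29, 23, 25 and 19 genes (1.71%, 1.26%, 1.4% and 1.09%). At least 20 UMIs per gene gave 337, 307, 282 and 283 (4.75%, 4.33%, 4.01% and 3.97%). At least 200 UMIs gave 8, 6, 0 and 0 (0.657%, 0.5%, 0% and 0%). Cells with a Foxp3 UMI gave 40, 30, 11 and 12 (2.06%, 2.14%, 0.679% and 0.703%). A 1.5-fold threshold gave 407, 409, 343 and 341 (9.24%, 9.39%, 7.99% and 7.64%). The number of genes tested changed with depth and minimum, so counts and shares did not always move together. Of the genes counted first, only 12, 7, 4 and 2 were among those past 2-fold after thinning, and 17, 7, 1 and 0 among those in cells with a Foxp3 UMI, so these were mostly other genes. For genotype in colonized mice equal weight per cell gave 54 genes (1.21%) and sub-cluster A 13 (0.374%). The count of 4 genes at least 2-fold higher in s2 in every library was 2 with thinning (none of the 4, Gsta4 included), 1 with equal weight, 71 and 1 at 20 and 200 UMIs, 137 in cells with a Foxp3 UMI (2 of the 4), 2 without cells of high UMI or immunoglobulin counts, 7 with the median scaled to 1, 26 at 1.5-fold and 8 in sub-cluster A (2 of the 4). The share of s2 among cells with a Foxp3 UMI was 28.4% in the germ-free Foxp3GFP and 9.02% in the colonized Foxp3CNS1- library, and sub-cluster A alone made up 20.4%, 12.8%, 12.2% and 6.45% of subset cells.

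Directions reversed in 7 cases, counting lists only where the main median was at least 0.25 in size, and another 132 list medians nearer to 0 changed sign, the Treg core list among them. In cluster 6 alone Xcl1 had 0.64 for colonization in Foxp3CNS1- and -0.0025 for genotype in germ-free mice, and Spp1 had -0.68 for the latter. In sub-cluster A the cytotoxic list had 0.31 for colonization in Foxp3GFP and 0.13 for genotype in germ-free mice, where Tnfsf8 had -0.27. In cells with a Foxp3 UMI the GBP and IRG list had 0.032 for genotype in colonized mice. The cause was not tested. Of 976 list medians 883 moved by less than the semi-interquartile range of the members, and of 763 values of named genes 693 stayed within the interval given. No paired analysis was possible because each group is 1 library.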

Other observations

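Some gene groups of s2 stand outside the comparisons above. In the BCL2 family 3 of 12 measured genes were higher than in the other subset cells in all 4 libraries and 5 lower, where 8.31% and 24.5% of all genes were. Besides Bcl2 the higher ones were Mcl1, another survival gene, with a median log2 ratio of 0.31, and Bbc3, which encodes the death-promoting protein PUMA, at 0.54. The lower ones included the death effector genes Bax (-0.30) and Bak1 (-0.64). Of 22 chemokine receptor and homing genes 10 were lower in every library, with -3.68 for Ccr2, a receptor of inflamed tissue, and -1.50 for Ccr4, a receptor of skin-homing and activated cells. Ccr7 and Ccr9 were among the 3 that were higher. Rora, a nuclear receptor gene of effector and tissue Treg cells, had -1.05.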
